A study of Sus scrofa with 12 samples.

Results

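The genes described here are DES, TLN2, SYNPO2L, FHOD1 and ANK1, 5 pig genes whose products anchor the contractile apparatus of the muscle fibre to its membranes and filaments. They are 5 of the 20741 features in the whole-genome count tables, and 5 of the 10411 features that passed the filter on low counts. They were picked for their role in fibre structure and for their levels across these same animals. Their values by animal, by drip, by sex and against each other are therefore descriptions, and no p-value is given for any of the 5. Muscle RNA of 12 pigs was sequenced, from 6 animals labelled HI and 6 labelled LO for drip, which are called high and low drip here. Drip is the fluid that meat loses after slaughter. Each drip group held 3 males and 3 females. The high drip animals were 167 to 186 days old and the low drip animals 172 to 189 days old, and the labels give no breed, treatment or genotype and do not name the muscle.

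In a striated muscle fibre, force passes sideways from the sarcomeres to the cell membrane through costameres, protein complexes that lie over the Z-discs, the borders between sarcomeres. Desmin filaments tie neighbouring Z-discs to each other and to the membrane, while talin and vinculin tie actin to integrins and the dystrophin complex ties it to the matrix. Desmin and talin are cut by calpains in meat after slaughter, which is why these links are studied in work on water holding. The RNA values given here say nothing of protein or of cutting.

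The whole-genome tables of 3 females, high drip replicate 2 and low drip replicates 1 and 2, are recorded in the series for another of these 3 animals than the one whose number the table carries in its name. Here each table was given to the animal it is named for. By that assignment every animal's whole-genome table shared 737 to 745 of 770 counts with its own table of chromosomal regions, against at most 167 with any other animal. The drip folds of the 5 genes are therefore also given for the 9 animals without this conflict, 5 high and 4 low drip. Because the conflict lies within females, the levels of the 6 males and of the 6 females as groups do not depend on it. Counts in features ranged from 8009627 to 12622043 per library. Levels are CPM, counts scaled to a common library total with TMM factors, and they compare animals, not genes, since no transcript lengths were used. In these bulk libraries, fewer fibres and less RNA per fibre cannot be told apart. Of 16 skeletal fibre markers, the 7 that had an ID summed to between 140326 and 169750 CPM in every library, ACTA1 being the highest, which goes with the label muscle. RNA typical of liver was present in 6 libraries, those of high drip replicates 1 to 4 and of low drip replicates 5 and 6. ALB, the gene of serum albumin, ranged there from 25.6 to 317 CPM, and elsewhere from 0.327 to 2.49 CPM.

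Desmin RNA was abundant, taking 0.587% to 0.887% of all counts in features, and varied by 1.64-fold between the lowest and the highest animal. Values are listed in the order of the replicate numbers, 4 to 6 for males and 1 to 3 for females. DES was at 7509, 5581 and 5620 CPM in high drip males, against 6162, 6125 and 7826 CPM in low drip males. It was at 7390, 6943 and 8354 CPM in high drip females, against 6282, 8284 and 9152 CPM in low drip females. The drip groups overlapped in both sexes. The 2 lowest animals were both high drip males, and the highest was the low drip female that was also the oldest pig. DES averaged 6900 ± 1105 CPM in high drip against 7305 ± 1295 CPM in low drip animals (SD, n = 6 each), a log2 fold of -0.08 ± 0.12 (standard error of the fit), and -0.14 ± 0.13 in the 9 animals. Desmin is also made by smooth muscle. The 8 smooth muscle and pericyte markers with an ID summed to between 231 and 378 CPM in high drip against between 239 and 373 CPM in low drip libraries, and their sum had r = 0.07 with DES over the 12 animals.

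TLN2 encodes talin 2, the talin form that prevails in mature striated muscle, which links the tails of integrins to actin. Its counts were the lowest of the 5 genes, 334 to 514 per library, so that counting error alone is 5.47% at the lowest count. TLN2 was at 34.6, 45.0 and 35.6 CPM in high drip males and at 34.1, 34.8 and 34.5 CPM in low drip males. It was at 51.2, 35.9 and 55.4 CPM in high drip females and at 42.5, 39.1 and 51.9 CPM in low drip females. The low drip males were nearly level, while each of the other groups held an animal at 45.0 CPM or more. The drip groups overlapped, with means of 42.9 ± 8.96 CPM in high drip against 39.5 ± 6.93 CPM in low drip animals (SD, n = 6 each) and a log2 fold of 0.12 ± 0.12, or 0.12 ± 0.12 in the 9 animals.

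SYNPO2L encodes a Z-disc protein of heart and skeletal muscle that binds alpha-actinin. It had the largest drip difference of the 5. In males, SYNPO2L was at 286, 300.1 and 284 CPM in the high drip animals and at 369, 410.2 and 468 CPM in the low drip animals, and the groups did not overlap. Of all 10411 tested features, 9.65% did not overlap by drip in males. In females it was at 352, 343 and 469 CPM in the high drip animals and at 495, 477 and 427 CPM in the low drip animals. Here high drip replicate 3 lay among the low drip females and the other two lay below all of them. Over both sexes, 5 of 6 high drip animals were below the lowest low drip animal. The share of all tested features with such a partial separation was not computed. Full separation of the drip groups of 6, which none of the 5 genes had, occurred in 0.106% of tested features. SYNPO2L averaged 339 ± 70.0 CPM in high drip against 441 ± 47.3 CPM in low drip animals (SD, n = 6 each). The log2 fold was -0.39 ± 0.11, and -0.38 ± 0.14 in the 9 animals. With the 3 disputed tables assigned as recorded in the series it was -0.24, and the low drip animals then began at 343 CPM, with high drip values up to 477 CPM. It was between -0.48 and -0.34 when any 1 animal was left out.

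FHOD1 encodes a formin, a protein that assembles and bundles actin filaments. It was set apart by sex. FHOD1 was at 202, 225 and 190.4 CPM in high drip males and at 197, 188 and 237 CPM in low drip males. It was at 238, 245 and 282 CPM in high drip females and at 315, 289 and 271 CPM in low drip females. Every male lay below every female, although the highest male, at 236.96 CPM, and the lowest female, at 238.49 CPM, were close. Of all tested features, 0.317% did not overlap between the 6 males and the 6 females. FHOD1 averaged 206 ± 19.95 CPM in males and 273 ± 28.4 CPM in females (SD, n = 6 each), a log2 fold of -0.40 ± 0.09, male minus female, and -0.36 ± 0.12 in the 9 animals. By drip it averaged 231 ± 32.9 CPM in high drip against 249 ± 51.0 CPM in low drip animals, a log2 fold of -0.10 ± 0.09, and -0.03 ± 0.11 in the 9 animals.

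ANK1 encodes ankyrin 1, first known from the red cell membrane. In muscle, its small isoforms sit in the sarcoplasmic reticulum and bind obscurin at the sarcomere. ANK1 was the steadiest of the 5, with a coefficient of variation of 10.15% over the 12 animals. Among the 5630 tested features with a mean of at least 10 CPM the median was 15.9%, and 12.2% of them varied less than ANK1. Its spread lay mostly in the high drip group: 1990 to 2959 CPM with a median of 2487 CPM in high drip animals, against 2302 to 2505 CPM with a median of 2375 CPM in low drip animals. In males it was at 2397, 1990 and 2353 CPM in the high drip animals and at 2360, 2505 and 2316 CPM in the low drip animals. In females it was at 2809, 2577 and 2959 CPM in the high drip animals and at 2302, 2390 and 2473 CPM in the low drip animals. The drip groups thus overlapped in males and did not in females, where 6.85% of all tested features did not overlap. With the tables as recorded, the females overlapped too, at 2390 to 2959 CPM in high drip against 2302 to 2577 CPM in low drip animals. The log2 fold over both sexes was 0.06 ± 0.09, with means of 2514 ± 347 CPM in high drip against 2391 ± 82.7 CPM in low drip animals (SD, n = 6 each), and 0.00 ± 0.11 in the 9 animals.

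The liver RNA moved with this pattern of ANK1. With tables assigned by name, all 3 high drip females carried it and none of the 3 low drip females did, and ANK1 averaged 2594 ± 246 CPM in the 6 libraries with ALB above 10 CPM, against 2311 ± 167 CPM in those with less. From a list of 25 liver markers, 21 had an ID, and they summed to between 17.6 and 656 CPM in high drip against between 22.7 and 129 CPM in low drip libraries. Their sum had r = 0.51 with ANK1 over the 12 animals. Among females, liver RNA and drip cannot be told apart by this assignment, and the part of liver RNA in the levels of ANK1 was not tested. The drip fold of ANK1 was -0.02 within the libraries with ALB above 10 CPM, 4 high and 2 low drip, and -0.12 within those at or below it, 2 high and 4 low drip. In each set all females were of the same drip group, so with sex as a term these folds compare males only. Above 10 CPM, high drip replicate 4 was set against low drip replicates 5 and 6. At or below it, high drip replicates 5 and 6 were set against low drip replicate 4. These folds therefore do not address the difference in females. Red cell RNA was low: of 12 erythroid markers 5 had an ID, KLF1 had no count in any library, SLC4A1 reached at most 0.352 CPM and EPB42 at most 0.648 CPM, while HBB lay between 19.2 and 85.6 CPM. Their sum was between 36.7 and 86.3 CPM in high drip against between 19.5 and 85.6 CPM in low drip libraries, and it had r = -0.08 with ANK1.

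**Figure D1:**
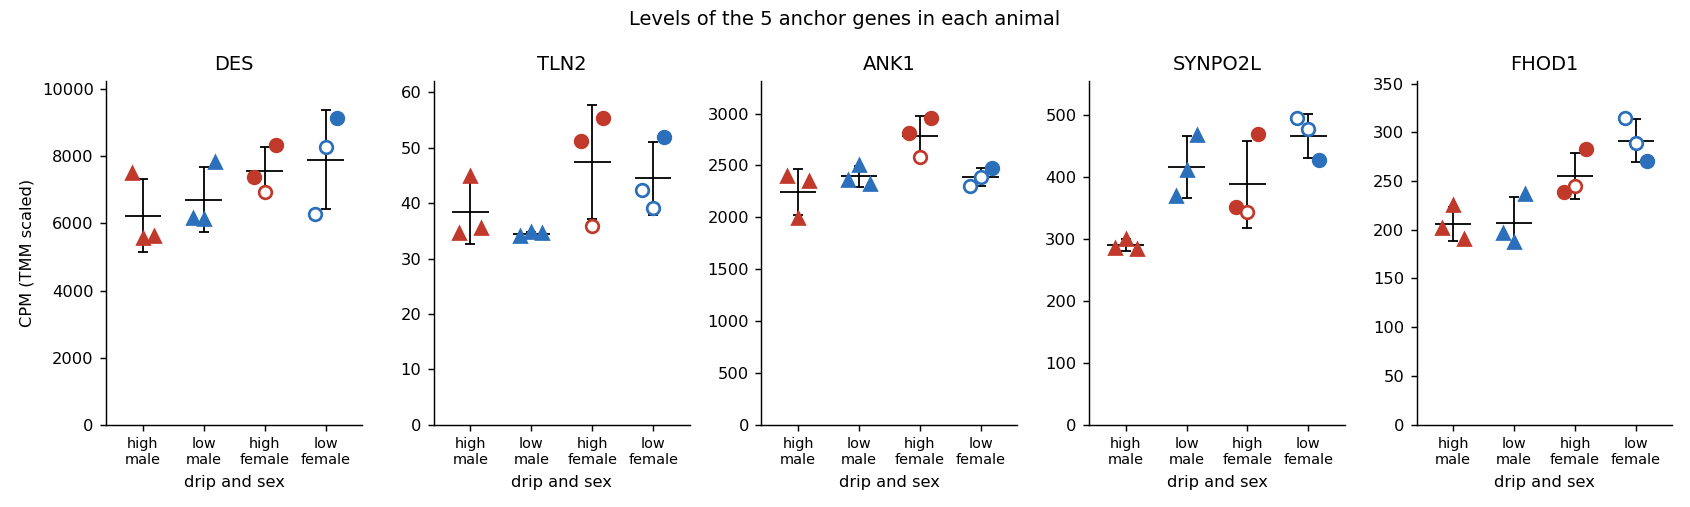
CPM with TMM scaling (vertical axis, from 0) of each gene in each animal, grouped by drip and sex. Points are animals, with triangles for males, circles for females, red for high and blue for low drip, and open symbols for the 3 females whose table is recorded for another animal, while lines and bars give the mean and SD of 3 animals. SYNPO2L separates high from low drip males at 284 to 300.1 against 369 to 468 CPM, and FHOD1 is lower in every male than in any female.

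All 5 genes had a negative log2 fold in males relative to females, and their drip differences were smaller apart from that of SYNPO2L. By sex, the log2 fold was -0.26 ± 0.12 for DES, with 6471 ± 964 CPM in males and 7734 ± 1054 CPM in females (SD, n = 6 each). It was -0.34 ± 0.12 for TLN2, with 36.4 ± 4.23 CPM in males and 46.0 ± 7.91 CPM in females. For SYNPO2L it was -0.29 ± 0.11, with 353 ± 76.0 CPM in males and 427 ± 65.6 CPM in females. For ANK1 it was -0.15 ± 0.09, with 2320 ± 174 CPM in males and 2585 ± 253 CPM in females. Apart from FHOD1 the sexes overlapped in each gene: 4 of 6 males were below all females for DES, 5 for TLN2, 3 for SYNPO2L and 1 for ANK1. The shares of all tested features with such counts were not computed. Within the high drip animals alone, where 7.52% of tested features did not overlap by sex, the males and females did not overlap for ANK1, SYNPO2L and FHOD1, although with the tables as recorded they overlapped for ANK1. Within the low drip animals, where that share was 12.9%, they did not overlap for TLN2 and FHOD1. The drip by sex interaction, taken as the drip fold of males less the drip fold of females, was -0.31 ± 0.18 for ANK1 and -0.33 in the 9 animals. It was -0.26 ± 0.21 for SYNPO2L, with -0.48 in the 9 animals, -0.56 with the tables as recorded and -0.11 without high drip replicate 3. For FHOD1 it was 0.18 ± 0.19, and 0.03 in the 9 animals. It was 0.06 ± 0.25 for TLN2 (-0.38 with ALB as a term) and -0.04 ± 0.26 for DES (0.10 in the 9 animals).

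Across all features, edgeR called none for drip, sex or their interaction. For drip, edgeR's quasi-likelihood test with Benjamini-Hochberg adjustment called 0 of 10411 features in 12 animals (0%) and 0 of 10724 in the 9 animals. DESeq2 and limma voom called 0 as well, and 369 features (3.54%) had an unadjusted p under 0.05 in edgeR. For sex, edgeR and voom called 0 of 10411 (0%) and DESeq2 called 2, with 679 features at an unadjusted p under 0.05. For the interaction, edgeR and voom called 0 of 10627 (0%) and DESeq2 called 7, with 371 features at an unadjusted p under 0.05. Each library came from a separate animal, so these tests set a difference against the spread between pigs.

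The wider set of anchor genes was taken as 6 lists with 129 symbols, of which 82 had an ID and 81 were tested. None of the 81 was called for drip, with 32 log2 folds above and 49 below 0 and a median of -0.08, against 0.00 over all tested features. Without the 5 genes the count was 30 above and 46 below, with a median of -0.07. In the 9 animals the same 81 genes had 32 above and 49 below and a median of -0.06.

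Z-disc and actin anchor genes, the list that holds SYNPO2L, had 7 folds above and 15 below 0 with a median of -0.13, and 8 above and 14 below with a median of -0.08 in the 9 animals. Of its 3 genes with the highest CPM, nebulin (NEB), which spans the thin filament, was at 8589 ± 1461 CPM in high drip against 9462 ± 665 CPM in low drip animals. Filamin C (FLNC), an actin crosslinker of the Z-disc, was at 8018 ± 2939 against 9655 ± 3275 CPM, and MYOZ1, which binds calcineurin at the Z-disc, at 7363 ± 849 against 7244 ± 500 CPM (SD, n = 6 each). Their log2 folds of -0.14, -0.27 and 0.02 were smaller in size than that of SYNPO2L, with standard errors of 0.11, 0.27 and 0.10. ANKRD1 and CSRP3, which respond to strain on the fibre, had folds more negative than that of SYNPO2L, at -0.46 ± 0.49 and -0.44 ± 0.46, and in the 9 animals that of ANKRD1 was 0.15. The largest positive fold of the list was that of CAPZB, the beta subunit of the actin capping protein, at 0.23 ± 0.09. These 3 genes were named after their values were seen.

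In the talin and integrin list 6 folds were above and 8 below 0, with a median of -0.01. Vinculin (VCL), which binds talin, was at 560.4 ± 71.2 CPM in high drip against 632 ± 43.0 CPM in low drip animals, a log2 fold of -0.17 ± 0.10. TLN1, the talin made in most cells, was at 136 ± 7.70 against 139 ± 14.6 CPM, a log2 fold of -0.02 ± 0.09, beside the 0.12 ± 0.12 of TLN2.

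Desmin's list had 3 folds above and 4 below 0 with a median equal to desmin's own value of -0.08, and 5 above and 2 below with a median of 0.12 in the 9 animals. BAG3, a chaperone partner at the Z-disc, was at 473 ± 95.3 CPM in high drip against 513 ± 124 CPM in low drip animals, and LMNA, the nuclear lamin, at 112 ± 29.7 against 100.4 ± 19.9 CPM. The ankyrin, spectrin and M-band list had 4 above and 6 below with a median of -0.05, and 2 above and 8 below with a median of -0.10 in the 9 animals. CMYA5, a costamere protein, was at 2888 ± 757 against 2849 ± 531 CPM, and the M-band protein MYOM2 at 2489 ± 182 against 2524 ± 365 CPM. The dystrophin list had 4 above and 6 below with a median of -0.05. SNTB1, a syntrophin, was at 238 ± 31.5 against 229 ± 48.7 CPM, dysferlin (DYSF), which repairs the membrane, at 198 ± 32.2 against 205 ± 32.1 CPM, and sarcospan (SSPN) at 161 ± 34.2 against 157 ± 20.9 CPM. The formin and actin assembly list, which holds FHOD1, had 8 above and 10 below with a median of -0.10. TMOD4, which caps thin filaments, was at 2251 ± 289 against 2123 ± 241 CPM, LMOD2, which elongates them, at 649 ± 227 against 789 ± 187 CPM, and the cofilin CFL2 at 498 ± 56.1 against 563 ± 95.4 CPM. None of these genes was called for drip.

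**Figure D2:**
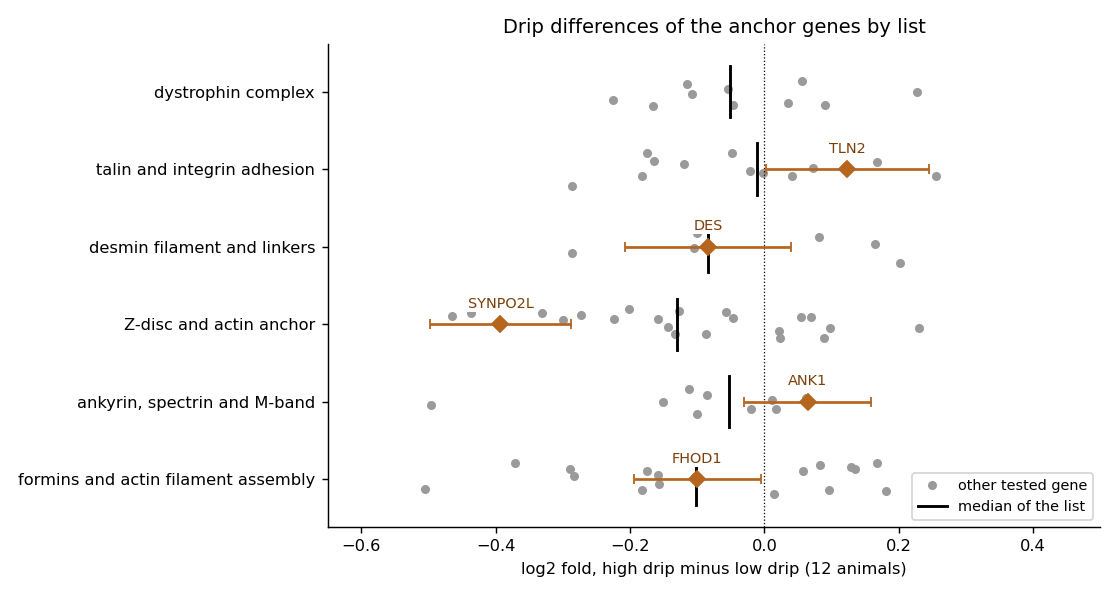
Log2 fold between 6 high and 6 low drip animals (horizontal axis) of each tested gene in the 6 lists. Grey points are genes, black bars are list medians, and diamonds with bars are the 5 genes with the standard error of the fit. SYNPO2L lies at -0.39, away from its list median of -0.13, while DES and FHOD1 lie at -0.08 and -0.10.

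By sex, the 81 genes had 27 log2 folds above and 54 below 0 with a median of -0.09, male minus female, against 0.00 over all features. Without the 5 genes it was 27 above and 49 below with a median of -0.06. FHOD3, the formin related to FHOD1 that is best known from the heart, had a log2 fold of -0.65 ± 0.27 and palladin (PALLD), an actin crosslinker, one of -0.37 ± 0.14. Both were named after their values were seen, and neither was called.

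The 5 genes tended to be high or low in the same animals. High drip replicate 3, a female, was among the 3 highest of the 12 animals for all 5 genes. High drip replicates 5 and 6, both males, were each among the 3 lowest for 3 of the 5. Over the 12 animals, Pearson's r of log2 CPM was above 0 for all 10 pairs, from 0.20 for ANK1 and FHOD1 to 0.70 for SYNPO2L and FHOD1, with a median of 0.47. Between each gene and the other features of at least 10 CPM, the median r was -0.00 to 0.04. The 95th percentile there was 0.51 to 0.64, above the median of the 10 pairs. Without the 2 animals farthest from the median of the first gene of a pair, 8 of the 10 were above 0, with a median of 0.41, and ANK1 and SYNPO2L had r = -0.25. These values rest on 12 animals that share each library's scaling factor. A lower TMM factor raises every CPM of a library. High drip replicate 3 had the lowest factor, 0.881, and high drip replicate 6 the highest, 1.08, with 1.05 in high drip replicate 5. Low drip replicate 2, with 1.07, was nevertheless among the 3 highest for 3 of the 5. The factor had r of -0.62 with DES, -0.58 with ANK1, -0.54 with TLN2, -0.38 with SYNPO2L and -0.35 with FHOD1. The choice of table for the 3 disputed females does not affect the r over all 12, since each table stays whole, but it does affect values within a drip group or after drip was taken out.

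SYNPO2L and FHOD1 had the highest r over the 12 animals, with r = 0.70 and rho = 0.71, and r = 0.57 without the 2 animals farthest from the median of SYNPO2L. In the 9 animals this order turned: r was 0.59 for SYNPO2L and FHOD1, below 0.85 for TLN2 and FHOD1, 0.78 for DES and FHOD1 and 0.62 for DES and SYNPO2L. Within the 6 high drip animals the r of SYNPO2L and FHOD1 was 0.94 and within the 6 low drip animals 0.82. The ratio of SYNPO2L to FHOD1 counts, in which library scaling cancels, was 1.46 ± 0.112 in high drip and 1.81 ± 0.249 in low drip animals (SD, n = 6 each). It ran from 1.33 to 1.66 in high drip and from 1.57 to 2.19 in low drip animals. In males it was 1.33 to 1.49 in high drip against 1.88 to 2.19 in low drip animals. In females the groups overlapped, at 1.40 to 1.66 in high drip against 1.57 to 1.65 in low drip animals. Only high drip replicate 3, at 1.66, reached into the low drip range, and in the 9 animals the low drip range was 1.58 to 2.19. With the tables as recorded, the low drip animals began at 1.40. The ratio was computed after the values were seen.

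Among the other pairs over the 12 animals, DES had r of 0.55 with FHOD1, 0.52 with ANK1, 0.51 with SYNPO2L and 0.44 with TLN2, and TLN2 had r of 0.60 with FHOD1. After sex and drip were taken out, the median over the 10 pairs was 0.25, SYNPO2L and FHOD1 had r = 0.53, DES and FHOD1 had r = 0.09, and ANK1 and FHOD1 had r = -0.53. In the 9 animals the median was 0.55. Without TMM factors it was 0.22, so the median r depends on the scaling. Among the high drip animals all 10 pairs had r above 0 with a median of 0.73. Among the low drip animals 8 did, with a median of 0.31, and ANK1 had r = -0.45 with SYNPO2L and -0.41 with FHOD1. The difference between the drip groups in r was not tested.

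**Figure D3:**
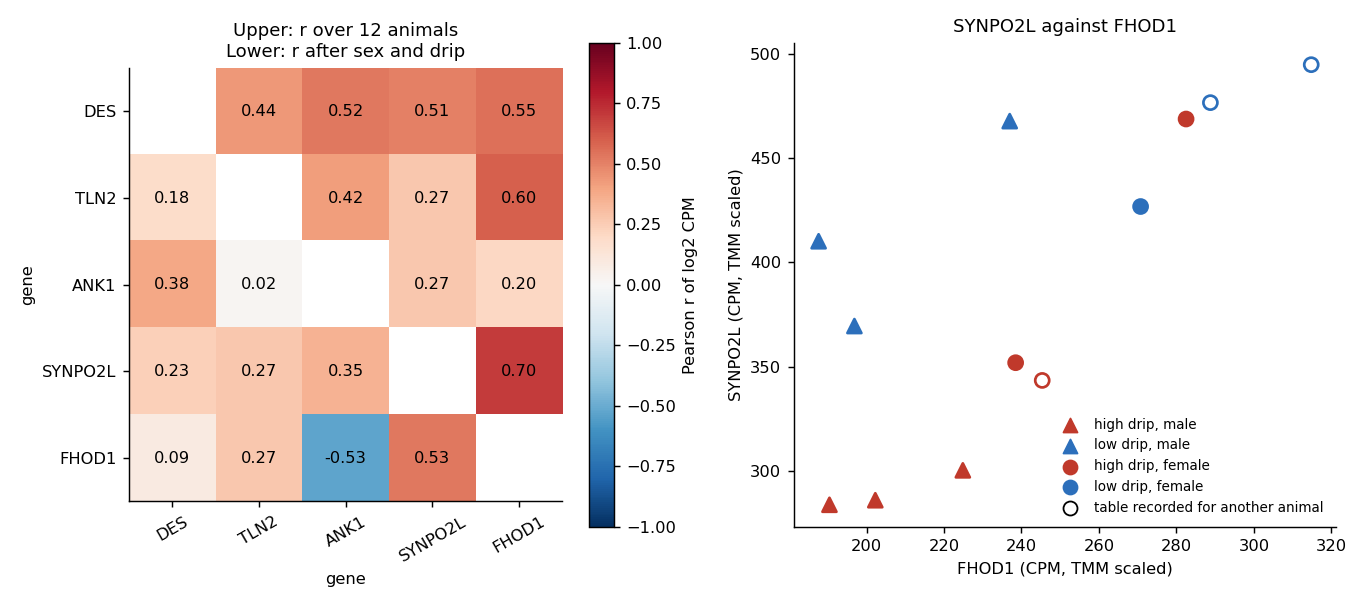
The left panel gives Pearson's r of log2 CPM between the 5 genes, over 12 animals above the diagonal and after sex and drip were taken out below it. The right panel plots SYNPO2L against FHOD1 in CPM for each animal, with colour for drip, shape for sex and open symbols for the 3 disputed tables. The pair with the highest r over 12 animals, at 0.70, is SYNPO2L and FHOD1, and low drip animals lie above high drip animals at like FHOD1 levels, apart from high drip replicate 3 at 469 CPM of SYNPO2L.

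TLN2 moved with age more than the other genes did. Its r with age in days was 0.74 over 12 animals (rho = 0.71), and 0.68 without the 2 animals farthest from the median age. For DES, SYNPO2L, FHOD1 and ANK1 the r with age was 0.22, 0.23, 0.46 and -0.07. Without the same 2 animals it was 0.24, 0.51, 0.56 and 0.44, nearer to that of TLN2. TLN2 was also lower where markers of several other cell types were higher, with r of -0.64 for the endothelial sum, -0.63 for the macrophage sum, -0.57 for the smooth muscle and pericyte sum and -0.55 for the adipocyte sum. Without the 2 animals farthest from the median of each sum, these were -0.32, -0.41, -0.56 and -0.24, so only the smooth muscle and pericyte value held. The r was most negative for fibroblasts. The 6 fibroblast markers with an ID, of 10, led by COL3A1 and COL1A2, summed to between 2816 and 5298 CPM in high drip against between 3241 and 5093 CPM in low drip libraries. Their sum had r = -0.81 with TLN2 (rho = -0.73, and r = -0.75 without the 2 farthest animals). Over the 9 animals the r of TLN2 was 0.74 with age and -0.87 with the fibroblast sum. FHOD1 had 0.67 and -0.69 in the 9 animals, although its r with the fibroblast sum was -0.27 over the 12. With age as a term, the sex fold of TLN2 was -0.21, against -0.34 without it. The part of these cell types in the differences of TLN2 was not tested.

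**Figure D4:**
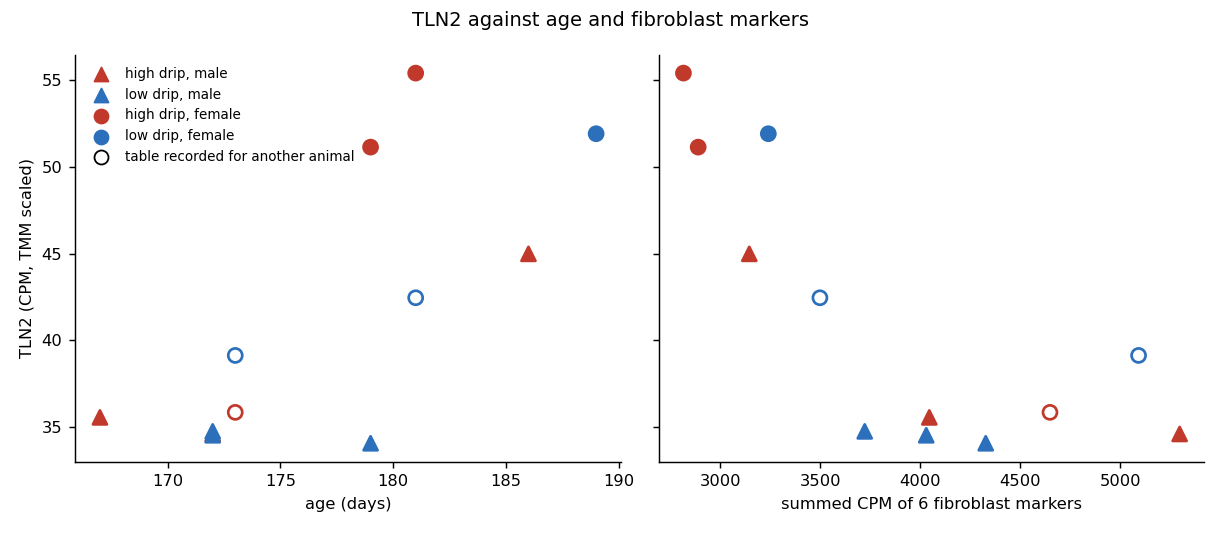
TLN2 in CPM (vertical axis, not from 0) against age in days on the left and the summed CPM of 6 fibroblast markers on the right, 1 point per animal, with colour for drip, shape for sex and open symbols for the 3 disputed tables. The animals highest in TLN2, high drip replicate 3 at 55.4 CPM and low drip replicate 3 at 51.9 CPM, are 181 and 189 days old.

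For each gene, the 3 named features of at least 10 CPM with the most similar profile over the 12 animals were listed by Pearson's r of log2 CPM. For SYNPO2L they were the splicing factor BUD13 (r = 0.92), the signal transducer SMAD3 (0.88) and the transcription factor SP1 (0.84). Their drip folds were -0.24 ± 0.10, -0.29 ± 0.17 and -0.34 ± 0.11. Because these 3 were picked for following SYNPO2L in the same animals, their folds are not separate evidence of a drip difference. For FHOD1 they were the decapping factor EDC3, the telomerase protein TEP1 and the coat protein SEC24C, with r of 0.82, 0.82 and 0.81. An unnamed gene, ENSSSCG00000022018, followed FHOD1 more closely than any named one, at r = 0.98 over 12 and 0.99 over 9 animals, with 79.3 to 131 CPM. For TLN2 they included PEX26 with r of 0.90 and PPT2 with r of 0.89. For ANK1 they were OAZ1, which restrains polyamine synthesis, at 0.88, MARCHF2 at 0.83 and MIF4GD at 0.82. For DES they were the translation factor EEF2 at 0.81, BLMH at 0.80 and UVRAG at 0.80. These are the top of 5629 comparisons for each gene, with a 95th percentile of r between 0.51 and 0.64.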

How the data were processed

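Per the labels' protocols, TruSeq libraries were made from DNase-treated total RNA of frozen muscle. Per the submitters' processing notes, the authors used TopHat2 2.0.3, Bowtie 0.12.7.0, HTSeq and the build Sscrofa10.2. Counting parameters, strand and annotation release are not given in the sources used here, so reads of an overlapping antisense transcript cannot be told apart. The deposited values are raw counts per feature, 1 library per animal, in a whole-genome table and a region table. Rows of counter totals were left out; reads in no feature were 28.6% to 34.3% of uniquely placed ones. The 5 genes were not in the region tables. Gene IDs were paired with symbols by an exact table match, which named 10349 of 20300 Ensembl genes. No sequence or gene length was used here.

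The main test was that of edgeR 4.0.16, run in R 4.3.3 (TMM, filterByExpr, quasi-likelihood F-test, two-sided, Benjamini-Hochberg, threshold 0.05) with sex and drip as terms, plus their product for the interaction. The standard error is the fold divided by the square root of F. Log2 CPM used a prior count of 2. Marker sums and ALB are scaled to the total of features. DESeq2 1.42.0 and limma 3.58.1 were alternatives. Only the edgeR fits with all animals were tested on simulated data, and the outcome is not given here. The counting error given for a count covers sampling of reads only. The members and lists were chosen with earlier results of these data known. Named genes were the 5, the 3 tested genes of each list with the highest mean CPM, any called gene, and the 3 closest named features per gene. Some genes that this rule took are not reported here and were not replaced. Other names were chosen after their values were seen. The titles give each animal its own number, and replicate numbers only count animals within a drip group. The overlap of groups with the tables as recorded was added after seeing the data.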

Additional observations from a re-analysis of the deposited data

How the results depend on the processing

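No paired analysis was possible because the labels give no replicate numbers; those used here count animals in accession order and pair none. For drip, edgeR called 0 features in 21 of its 22 alternatives, and DESeq2 and limma voom called 0. In the 6 libraries with ALB at or below 10 CPM alone, 3 features were called, none of them an anchor gene. For sex, DESeq2 called 2 features, and edgeR with no filter on low counts called 1. For the interaction, DESeq2 called 7. The cause was not tested. Both above 10 CPM of ALB and at or below it, all females were of the same drip group. With sex as a term, the drip folds and calls of these 2 sets therefore rest on males. Above 10 CPM they set high drip replicate 4 against low drip replicates 5 and 6. At or below it they set high drip replicates 5 and 6 against low drip replicate 4. The drip fold of SYNPO2L was below 0 in all 24 alternatives, between -0.63 in the 6 libraries with ALB above 10 CPM and -0.24 with the tables as recorded. That of ANK1 was -0.12 in the libraries with ALB at or below 10 CPM and -0.02 in those above. In the libraries with ALB above 10 CPM DES had 0.10 and TLN2 -0.01, and FHOD1 had 0.08 in those at or below it. The sex folds of all 5 genes stayed below 0 in their 21 alternatives. The median drip fold of the anchor lists was 0.04 in the libraries with ALB at or below 10 CPM, and the r of ANK1 and FHOD1 was -0.53 after sex and drip were taken out. The number of animals and the low counts of TLN2 limit the precision.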

Other observations

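In the gene order of RefSeq's annotation of the pig assembly Sscrofa11.1, which is not the build of the files, SYNPO2L lies between MYOZ1, another Z-disc gene, and SEC24C. The profile of SYNPO2L had r = 0.20 with MYOZ1 (rho = 0.05) and r = 0.65 with SEC24C (rho = 0.63) over the 12 animals. Without the 2 animals farthest from the median of the neighbour these were -0.33 and 0.42. The other neighbours with a tested ID were DNPEP beside DES (r = 0.35), TPM1, a tropomyosin, beside TLN2 (r = 0.42), and SLC9A5 beside FHOD1 (r = -0.16). With the 2 farthest animals of each neighbour left out, they had r of 0.02, 0.31 and 0.57, so the sign for SLC9A5 turned. These values are descriptions over 12 animals that share each library's scaling.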
